A study of Homo sapiens with 4 samples.

Results

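The MYC locus was examined as the 2 Mb of chromosome 8 (band 8q24, hg19) that surround the MYC start site at position 128748315 on the plus strand. Every accessible peak with a midpoint between 127500000 and 129500000 was taken. These were 315 of the 234140 peaks that 4 libraries listed, and they merged into 105 of 78788 regions, a region being any set of peaks that share at least 1 bp. The libraries came from wild-type HCT116 cells, a line derived from a human colorectal cancer. The cells spent 6 h in 0.5 µg/ml tunicamycin or in 0.1% DMSO, the solvent alone, and the series calls the 2 libraries of each group biological replicates. Tunicamycin blocks the first step of N-glycosylation and so causes stress in the endoplasmic reticulum. Each library was made by ATAC-seq from 50000 cells, a method in which the Tn5 transposase inserts sequencing adapters where chromatin is open.

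MYC encodes a transcription factor that drives growth and cell division, and it is among the most frequently amplified genes in cancer. Few protein-coding genes lie near it, and the long intervals on both sides hold enhancers that differ between tissues. In colorectal cells the enhancers upstream bind TCF7L2 with beta-catenin, the effectors of Wnt signalling. HCT116 carries an activating beta-catenin mutation. MYC and the neighbours looked for, 19 of 19 names, were matched in the RefSeq annotation of GRCh38.p14, which was used only for their order. Along the chromosome, LRATD2, PCAT1, PRNCR1, CASC19, CCAT1, CASC21, CASC8, CCAT2, POU5F1B and CASC11 come before MYC. CCAT1 and CCAT2 are long non-coding RNAs known from colon cancer, and POU5F1B is a copy of the POU5F1 pluripotency gene. PVT1, a long non-coding RNA whose promoter is known to compete with that of MYC, follows MYC, with MIR1204 to MIR1208 and TMEM75 (now LINC02912) and then GSDMC. Regions were not assigned to these genes and are named by their distance from the MYC start site.

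The depth of a peak is given as the number of reads at its summit, recovered from the authors' fold and −log10 p-value. The median summit over whole lists held 15 reads in 3 libraries and 16 in tunicamycin replicate 2, and the lists held 56566 to 62526 peaks. The implied genome-wide background lay between 0.140 and 0.147 reads per position. To compare libraries, each region listed in all 4 was ranked by its q-value among all 40447 such regions. The rank is given as a percentile, with 100 the strongest. The q-value sets the summit against the local background, so equal reads rank lower where that background is higher. Strong and weak refer to this rank. Accessibility in bulk cells is an average, so fewer open cells and less open chromatin per cell cannot be told apart.

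The window was densely accessible. It held 52.5 regions per Mb, against 24.4 per Mb over the rest of chromosome 8 and 27.0 per Mb over the whole series. Regions listed in all 4 libraries, called common here, stood at 29.5 per Mb against 12.5 per Mb on the rest of the chromosome and 13.8 per Mb overall. The local background under the peaks was also somewhat higher: its median over common regions was 0.602 and 0.633 reads in DMSO replicates 1 and 2 and 0.666 and 0.704 in tunicamycin replicates 1 and 2, against 0.542 to 0.597 over all common regions. HCT116 is known to carry extra copies of distal 8q. Copy number was not measured here, and its part in the density was not tested.

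**Figure D1:**
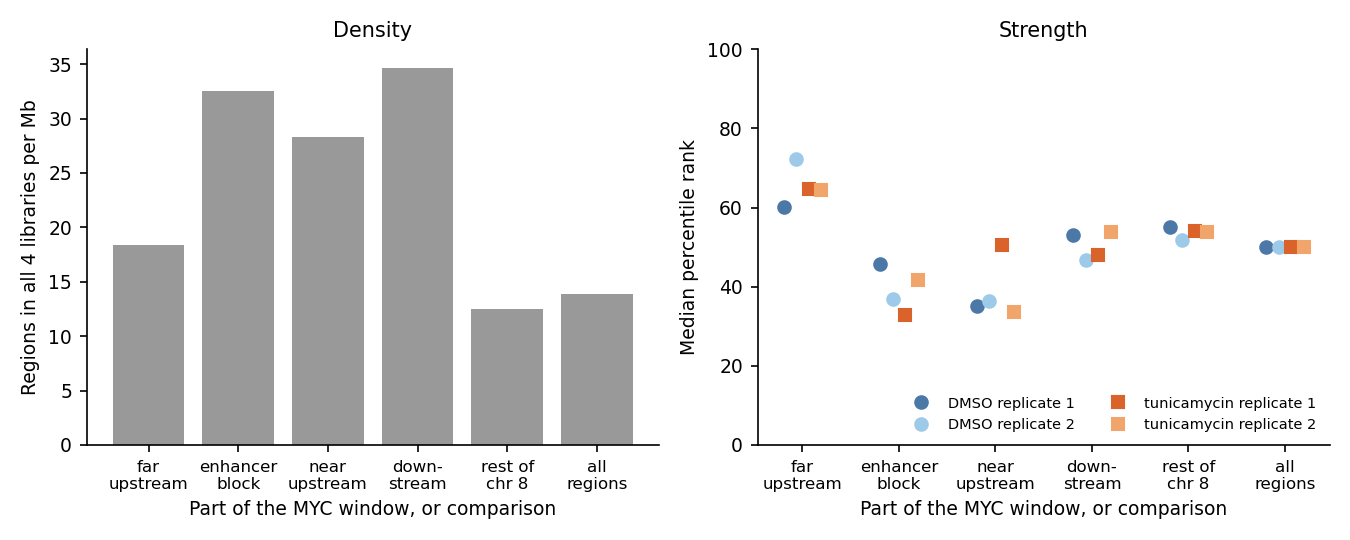
Density of regions listed in all 4 libraries (left, regions per Mb) and median percentile rank of those regions in each library (right), for the parts of the MYC window, the rest of chromosome 8 and the whole series. Density in the enhancer block (32.5 per Mb) and downstream (34.6 per Mb) is above the 13.8 per Mb of the series, while the block's median rank is below that of all regions in each library.

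Accessible sites were unevenly spread. In bins of 100 kb the number of common regions ran from 0 to 7 with a median of 2.5, and 2 of 20 bins held none. The longest stretch without a region in any library was 110.7 kb, from 1036.8 to 926.1 kb upstream of MYC. The next was 87.7 kb, from 788.7 to 701.0 kb upstream. Common regions were joined into a cluster where the gap to the next was at most 10 kb, and the 2 largest clusters held 5 regions each. One covered 9.27 kb around the MYC start site, and the other covered 18.3 kb in the upstream block, 529.0 to 510.7 kb before the gene. Of 27999 such clusters in the series, 405 (1.45%) held at least 5 regions. The region nearest inside the upstream limit was chr8:127500474-127500668, with 9, 13, 11 and 9 reads in DMSO replicates 1 and 2 and tunicamycin replicates 1 and 2. All sets of 4 values below follow that order. The nearest region outside that limit lay 33.5 kb beyond it, and the nearest outside the downstream limit lay 27.1 kb beyond it, with 4 reads in DMSO replicate 1 only.

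**Figure D2:**
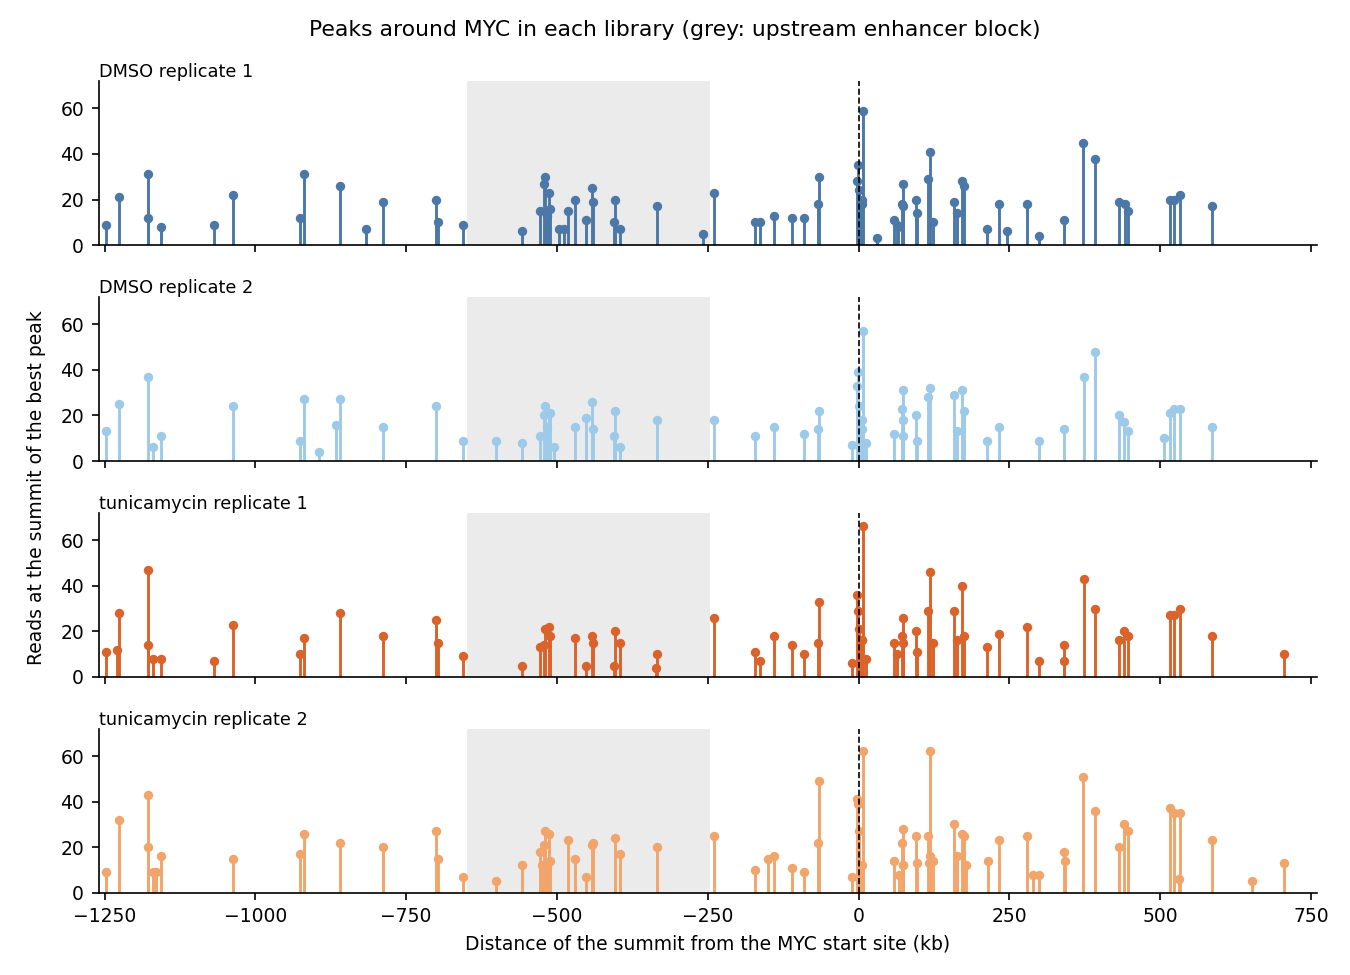
Reads at the summit of the best peak in every region of the MYC window, by distance from the start site in kb, with 1 panel per library. The site 7.1 kb downstream of the start site reaches 57 to 66 reads, a height that another site equals only in tunicamycin replicate 2, and the long empty stretches upstream are shared by all 4 panels.

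At the MYC promoter, 2 common regions lay within 1 kb of the start site, and both ranked somewhat lower in the tunicamycin libraries without passing the test. The first, chr8:128747429-128747650, lies 886 to 665 bp upstream. Its summit held 35, 39, 29 and 39 reads, so the groups overlapped, and its percentile ranks were 64.4, 71.7, 42.6 and 58.1. The second, chr8:128748317-128748609, begins 2 bp after the start site and ends 294 bp after it. It held 24, 24, 21 and 27 reads at percentiles 27.2, 24.8, 14.0 and 22.4. In every library the region over the start site held fewer reads and ranked lower than the one upstream. Both ranked below the strongest site nearby. Local background was 2.52, 2.64, 2.52 and 2.99 reads at the upstream region and 2.56, 2.70, 2.59 and 3.02 over the start site. Its medians over all common regions were 0.542 to 0.597, and median summit reads there were 18, 19, 19 and 21. The low ranks over the start site thus went with summit reads above that median in each library. The rank change, as tunicamycin minus DMSO on a normal-score scale in which 1 unit is 1 SD of all common regions, was -0.46 ± 0.348 (SE, n = 2 per group, 95% interval -1.16 to 0.23) for the upstream region. Its limma p-value with Benjamini-Hochberg adjustment over all common regions was 0.840. Over the start site the change was -0.28 ± 0.462 (SE, n = 2 per group, 95% interval -1.20 to 0.64) with a limma adjusted p of 0.956. These intervals include 0 and also changes of over 1 unit downward, so a loss of that size cannot be set aside at this depth. Without tunicamycin replicate 1 the changes were -0.27 and -0.12, and without tunicamycin replicate 2 they were -0.66 and -0.44.

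The position of the summit over the start site differed between the groups. It lay 201 and 188 bp after the start site in the DMSO libraries and 59 and 48 bp after it in the tunicamycin libraries. The nearest summits of the 2 groups were 129 bp apart, while the 2 libraries of a group were much closer to each other. Only 2 of the 59 common regions of the window (3.39%) had the groups' summits at least 100 bp apart, against 0.613% of all common regions, and this limit and the regions were chosen after their values were seen. The other was the region 6.2 kb downstream, where summits lay 6131, 6027, 6243 and 6333 bp after the start site and libraries of a group were nearly as far apart as the groups. With 21 to 27 reads at a summit and no read positions, the error of a summit position is not known, and the difference was not tested.

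Beside the promoter stood one of the best-ranked sites of the window, and others of middle or low rank. The region 7.1 kb downstream, chr8:128755259-128755549, held 59, 57, 66 and 62 reads at percentiles 96.2, 94.97, 98.2 and 95.7. The authors' fold over the local background there was 18.5, 18.2, 22.5 and 21.3. Both tunicamycin libraries held more reads than both DMSO libraries, but the ranks of the groups overlapped, with a change of 0.20 ± 0.257 (SE, n = 2 per group) and a limma adjusted p of 0.931. It ranked above both promoter regions in every library.

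The region 6.2 kb downstream, chr8:128754315-128754663, was at the other end of the ranking. It held 20, 18, 16 and 12 reads over a local background of 2.39, 2.43, 2.21 and 2.22 reads. The region ranked at percentiles 15.1, 8.4, 4.8 and 0.19, with reads and ranks lower after tunicamycin. Its change was -1.07 ± 0.587 (SE, n = 2 per group) with a limma adjusted p of 0.727. This size rested on single libraries, at -0.46 when tunicamycin replicate 2 was left out and -1.69 when tunicamycin replicate 1 was. A neighbour 5.8 kb downstream was listed in 3 libraries with 18, 14 and 16 reads and was missing from tunicamycin replicate 2. On the other side, the region 1.9 kb upstream, chr8:128746277-128746550, held 28, 33, 36 and 41 reads at percentiles 44.3, 57.6, 65.5 and 63.7. Its groups did not overlap in reads or in rank, yet the change of 0.35 ± 0.351 (SE, n = 2 per group) had a limma adjusted p of 0.894. The sign of the rank change thus differed between these sites, but no change passed the test and each 95% interval included 0. Over all common regions, ranks of both tunicamycin libraries were above both DMSO ranks at 18.0% and below them at 18.3%.

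**Figure D3:**
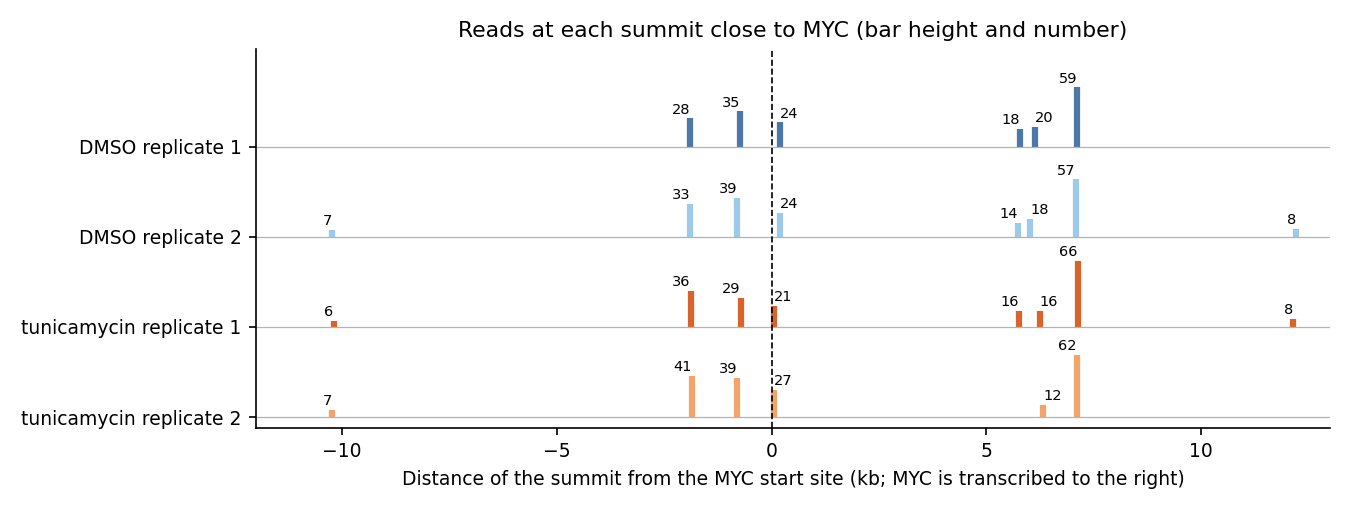
Reads at each summit close to the MYC start site, with distance in kb on the horizontal axis and 1 line of bars per library; bar height and number give the reads. The site at 7.1 kb is the tallest in every library, and the summit just after the start site sits closer to it in the tunicamycin libraries.

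The upstream colon cancer enhancer block, from 128.1 to 128.5 Mb, was dense in sites of low to middle rank. It held 24 regions, 13 of them common, or 32.5 common regions per Mb. The median percentile of its common regions was 45.8, 37.0, 32.8 and 41.8. This was below the median of all common regions in 4 of 4 libraries and below that of the downstream part in 4 of 4. Median summit reads of the block were 19, 19, 15 and 20, against 18, 19, 19 and 21 over all common regions. The block's median local background was 0.650, 0.652, 0.666 and 0.744 reads, against 0.542 to 0.597. A mean percentile above 90 was found at 0 of the block's 13 common regions and at 3 of 26 downstream (11.5%). Such small numbers were not tested against the share over all common regions. Across the window those 3 of 59 were 5.08%, against 8.35% of all common regions. The block's median was below that of the near upstream part in 1 of 4 libraries only.

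Of the 3 best-ranked sites of the block, the groups' summit reads were separated at 1. Over all common regions, summit reads were separated at 25.4% with tunicamycin higher and at 7.34% with tunicamycin lower. The region 403.8 kb upstream, chr8:128344370-128344587, held 20, 22, 20 and 24 reads, and the groups overlapped. The region 441.3 kb upstream, chr8:128306916-128307169, held 25, 26, 18 and 21 reads at percentiles 65.8, 70.4, 40.1 and 41.8. Here both tunicamycin libraries lay below both DMSO libraries, with a change of -0.70 ± 0.358 (SE, n = 2 per group) and a limma adjusted p of 0.694. The region 520.6 kb upstream, which belongs to the cluster of 5, held 30, 24, 21 and 27 reads, and there the groups overlapped.

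The block also held the window's largest rank changes in each direction, both at weak sites. The region 452.6 kb upstream, chr8:128295618-128295828, held 11, 19, 5 and 7 reads at percentiles 23.1, 64.0, 0.73 and 4.0. Both tunicamycin libraries were lower, but the DMSO libraries were themselves far apart. Its change was -1.91 ± 0.516 (SE, n = 2 per group, 95% interval -2.94 to -0.88), with an unadjusted limma p of 0.00042 and an adjusted p of 0.211. Exact Poisson 95% intervals, which cover counting error only, run from 5.49 to 19.7 for the 11 reads and from 1.62 to 11.7 for the 5 reads, and so overlap. The region 395.8 kb upstream, chr8:128352353-128352593, went the other way, with 7, 6, 15 and 17 reads at percentiles 7.5, 3.3, 41.0 and 43.3. Its peaks were 139 and 132 bp wide after DMSO and 241 and 239 bp wide after tunicamycin, so reads, ranks and widths were all separated between groups. Its change was 1.45 ± 0.479 (SE, n = 2 per group, 95% interval 0.49 to 2.40), with an unadjusted limma p of 0.00349 and an adjusted p of 0.408. Leaving out 1 library at a time moved the first change between -2.46 and -1.36 and the second between 1.24 and 1.65. The signs could not change in this check, because the ranks of the groups did not overlap at either site.

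As a group the block had a median rank change of -0.27, with 6 of 13 regions ranked higher and 7 lower after tunicamycin. The median over all 40447 common regions was 0.00044. This value rested on single libraries: it was -0.03 without DMSO replicate 1 and 0.08 without tunicamycin replicate 1. It was -0.09 when only regions with 1 peak per library were kept. Summit reads of both tunicamycin libraries were above both DMSO libraries in 1 of the 13 (7.69%, against 25.4% of all common regions) and below in 2 (15.4%, against 7.34%).

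Between the block and the gene, 11 regions included 7 common ones. The region 239.5 kb upstream, chr8:128508739-128508899, held 23, 18, 26 and 25 reads. The region 65.1 kb upstream, chr8:128683153-128683321, held 30, 22, 33 and 49 reads at percentiles 77.1, 51.4, 81.6 and 92.7. It was highest in tunicamycin replicate 2, and the groups did not overlap. The change was 0.79 ± 0.312 (SE, n = 2 per group), with an unadjusted limma p of 0.0137 and an adjusted p of 0.531. Without DMSO replicate 2 this change was 0.43, and without tunicamycin replicate 2 it was 0.51.

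The far upstream part was the sparsest, with 18.3 common regions per Mb, and its sites ranked comparatively high. Its median percentiles were 60.2, 72.4, 64.7 and 64.4, above the block, the near upstream part, the downstream part and all regions in 4 of 4 libraries. Median summit reads were 20, 24, 18 and 20, against 18, 19, 19 and 21 over all common regions. The median local background was 0.252, 0.344, 0.242 and 0.253 reads, against 0.542 to 0.597 over all common regions. The part of the background in these ranks was not tested. The best-ranked region, 1177.6 kb upstream at chr8:127570549-127570914, held 31, 37, 47 and 43 reads, with both tunicamycin libraries higher. The region 859.3 kb upstream held 26, 27, 28 and 22 reads and the groups overlapped. The region 918.8 kb upstream, chr8:127829394-127829581, held 31, 27, 17 and 26 reads at percentiles 91.5, 85.2, 55.5 and 78.9. It was lowest in tunicamycin replicate 1, with a change of -0.74 ± 0.306 (SE, n = 2 per group), an unadjusted limma p of 0.018 and an adjusted p of 0.576. Without tunicamycin replicate 1 the change was -0.41.

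Downstream of MYC, where PVT1 and the MIR1204 to MIR1208 genes follow, 48 regions held 26 common ones, 34.6 per Mb. This was the densest part apart from the promoter. Its median percentiles of 53.0, 46.7, 48.1 and 53.8 were below those of all common regions in 2 of 4 libraries. After the region 7.1 kb downstream, the best ranked were 373.0 kb downstream, at chr8:129121211-129121480 with 45, 37, 43 and 51 reads, and 391.9 kb downstream, at chr8:129140077-129140348 with 38, 48, 30 and 36 reads. The second of these had percentiles of 94.7, 97.1, 84.5 and 86.7 and was lower in both tunicamycin libraries, with a change of -0.69 ± 0.271 (SE, n = 2 per group), an unadjusted limma p of 0.0128 and an adjusted p of 0.521. The weak region 213.8 kb downstream, chr8:128961897-128962242, held 7, 9, 13 and 14 reads, and its peaks were 201 and 235 bp wide after DMSO and 274 and 329 bp wide after tunicamycin. Its change was 0.82 ± 0.502 (SE, n = 2 per group) with a limma adjusted p of 0.777, and it was 0.53 without DMSO replicate 1. The widest common region of the window, 340.8 kb downstream at chr8:129088854-129089436, had peaks of 529, 441, 493 and 566 bp with only 11, 14, 14 and 18 reads at the summit.

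Some further downstream sites were picked after their values were seen. At 515.9, 522.7 and 533.6 kb downstream, 3 neighbouring common regions held 20, 21, 27 and 37 reads, 20, 23, 27 and 35 reads, and 22, 23, 30 and 35 reads. Reads of both tunicamycin libraries were above both DMSO libraries at each. This held at 25.4% of all common regions, and summit reads are not scaled for depth. Local background was also higher in both tunicamycin libraries, at 0.295, 0.254, 0.352 and 0.478 reads, 0.295, 0.366, 0.416 and 0.486 reads, and 0.349, 0.376, 0.474 and 0.478 reads. The rank changes of the 3 regions were 0.57 ± 0.298, 0.45 ± 0.301 and 0.48 ± 0.296 (SE, n = 2 per group), with limma adjusted p of 0.709, 0.809 and 0.774. The region 118.2 kb downstream held 41, 32, 46 and 62 reads, with a change of 0.68 ± 0.288 (SE, n = 2 per group), an unadjusted limma p of 0.0216 and an adjusted p of 0.596.

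**Figure D4:**
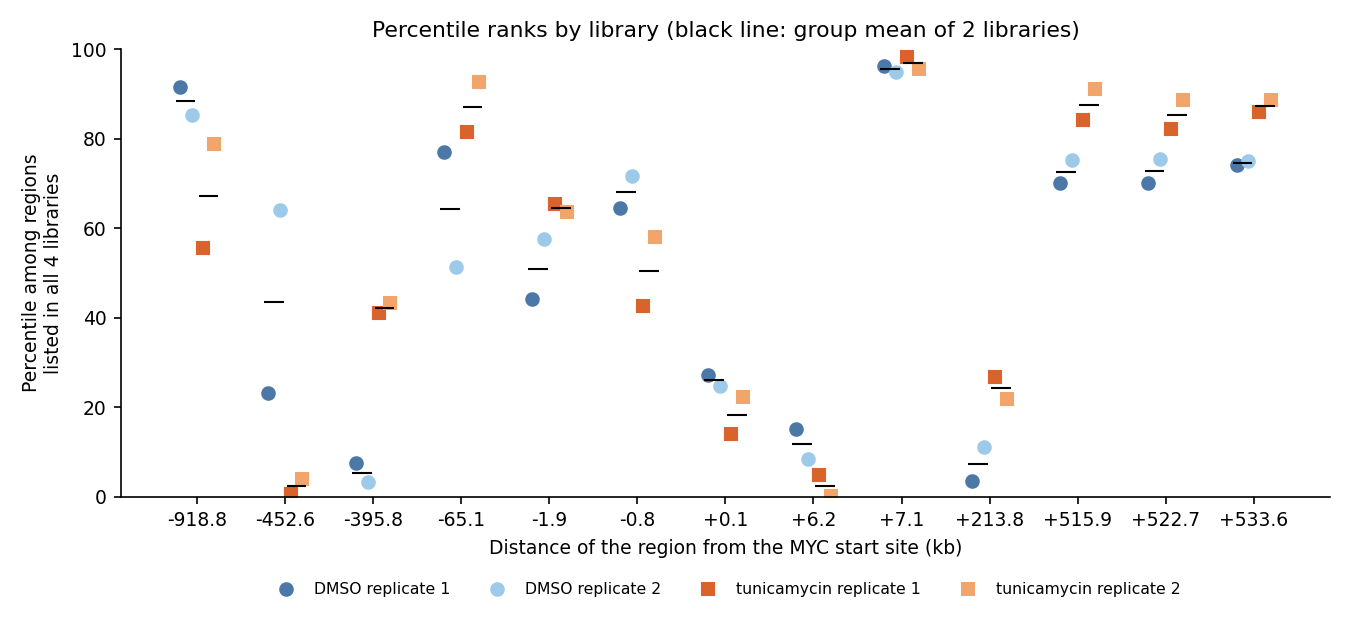
Percentile rank of regions described above in each library, by distance from the MYC start site (kb); circles are DMSO, squares are tunicamycin and the black line is the mean of the 2 libraries of a group. The site 7.1 kb downstream has percentiles of 94.97 to 98.2, and the sites 452.6 and 395.8 kb upstream show the widest separation of the groups in opposite directions.

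Across the window, no region passed the rank comparison. In limma with Benjamini-Hochberg adjustment, 0 of 59 common regions had an adjusted p under 0.05, against 21 of all 40447 (0.0519%), and the smallest adjusted p in the window was 0.211. At an unadjusted p under 0.05 there were 6 of 59 (10.2%), 3 higher and 3 lower after tunicamycin, against 7.33% of all common regions. Every alternative setting of this test also gave 0 in the window. Changes were positive for 35 regions and negative for 24, with a median of 0.13, and this median was -0.02 without DMSO replicate 2.

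Counts of regions whose groups did not overlap were set beside the same counts over all common regions. The ranks of both tunicamycin libraries exceeded those of both DMSO libraries in 11 of 59 (18.6%, background 18.0%) and were lower in 13 (22.0%, background 18.3%), and they overlapped in 35. Both tunicamycin peaks were wider in 13 (22.0%, background 20.0%) and narrower in 10 (16.9%, background 13.7%). Summit reads, which are not scaled for depth, were higher in both tunicamycin libraries in 20 (33.9%, background 25.4%) and lower in 6 (10.2%, background 7.34%).

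**Figure D5:**
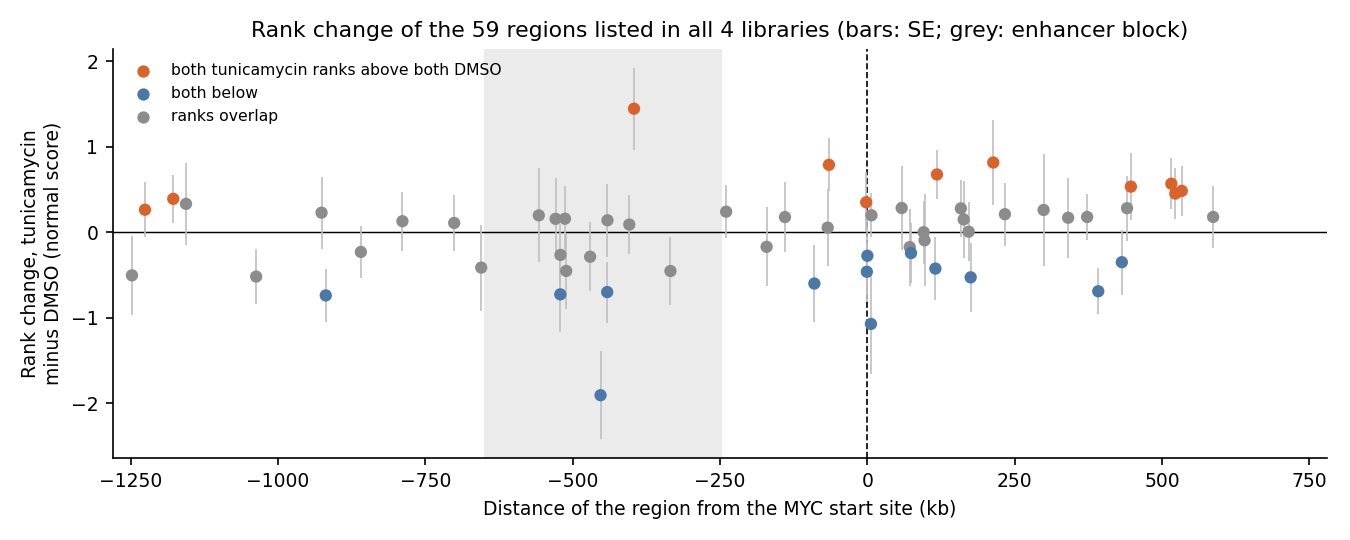
Rank change (tunicamycin minus DMSO, normal score) of the 59 common regions by distance from the MYC start site in kb; bars are the SE, grey marks the enhancer block, and colour shows whether the ranks of the groups overlap. Higher and lower ranked regions are interleaved along the window, and the extremes, -1.91 and 1.45, both lie in the block.

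Most accessible sites of the window were listed in both groups. The window held 80 and 72 peaks after DMSO (76.0 ± 5.66, SD, n = 2) and 79 and 84 after tunicamycin (81.5 ± 3.54, SD, n = 2), a ratio of 1.07. In a two-sided exact permutation test this gave p = 0.667, where 2 libraries against 2 allow no value under 0.333. Of the 105 regions, 59 (56.2%) were common, against 51.3% in the series. A peak in both tunicamycin libraries and neither DMSO library was found at 2 regions (1.90%, background 3.65%). The reverse was found at 0 regions (background 1.86%). A further 5 regions were listed in 1 library of each group, 11 in 3 libraries and 28 in 1 library.

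Both regions listed only after tunicamycin lay downstream and were narrow or shallow. The first, 73.4 kb downstream at chr8:128821687-128821809, held 15 and 12 reads in peaks of 123 and 103 bp, at the 25.1 and 9.6 percentile of their own lists. Close beside it, chr8:128821967-128822139 was listed in DMSO replicates 1 and 2 with 17 and 11 reads and in tunicamycin replicate 2 with 12. Where gaps of up to 250 bp were merged, only 1 region was listed only after tunicamycin. The second, 706.1 kb downstream at chr8:129454351-129454506, held 10 and 13 reads in peaks of 130 and 156 bp, at the 37.4 and 53.6 percentile. The lists hold no peak under 100 bp, so a narrower peak in DMSO libraries would not be seen. Regions private to 1 library were most numerous in tunicamycin replicate 2, with 12, against 8 and 5 in DMSO replicates 1 and 2 and 3 in tunicamycin replicate 1. Over the whole series they numbered 3624 and 3685 in DMSO replicates 1 and 2, whose lists held 56581 and 56566 peaks. In tunicamycin replicates 1 and 2 they numbered 4192 and 6042, with lists of 58467 and 62526 peaks. Private regions of the block included a peak of 23 reads, 103 bp wide, 482.3 kb upstream in tunicamycin replicate 2, at chr8:128265984-128266086. Close beside it, at chr8:128266242-128266353, DMSO replicate 1 alone listed a peak of 15 reads. The 2 peaks count as separate regions only because they share no base. Shared bases, as the Jaccard index of peaks in the window, came to 65.5% for the DMSO pair and 70.8% for the tunicamycin pair. Across groups they ran from 61.7% to 69.1%, so that 2 pairs from different groups shared more than the DMSO pair did.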

How the data were processed

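ATAC-seq peak lists of 4 HCT116 libraries were used. The hg19 build and MACS2 2.2.7.1 appear in the submitters' processing notes, as do Bowtie2 2.3.5.1, Picard 2.18.23, Trim Galore, deepTools and SAMtools. For their settings, and for any shift of reads for the transposase, the entry is: not given in the sources used here. Per library, 1 list was deposited by the authors, with a whole-number score, a fold (a ratio to local background), and −log10 p-values and −log10 q-values. These are the authors' values, and served only to describe, rank or filter peaks within a list. A whole-number summit pileup that gives the deposited fold and −log10 p-value within 0.001 was found for 100% of peaks. Read totals were not used here.

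Peaks were merged across the genome where they shared at least 1 bp (Python 3.11.15, pandas 2.3.3, scipy 1.17.1). For regions in all 4 lists, q-value ranks became normal scores, compared in limma 3.58.1 under R 4.3.3 (prior spread as a trend in the mean score) with Benjamini-Hochberg adjustment at 0.05 over 40447 regions. On simulated scores over 40447 regions the test recovered 83.0% of 200 shifts of 2 units, with 2 unshifted regions called, and 0% of shifts of 1 unit. The simulated spread was the same for all regions, whereas the SE in the window ran from 0.257 to 0.656. These rates therefore need not hold for single regions. Merging was tested on simulated lists.

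Described regions were those within 10 kb of the start site, the 3 best ranked per part, those listed only in one group, the 3 largest rank changes in each direction, and the widest. Members, lists and tests were chosen with earlier results of these data known. Alternatives were stricter q-values, equal list lengths, other merging, peaks of at least 130 bp, other ranked values and scales, other limits of block and promoter, leaving out each library, and a block on the replicate number. Cell type markers were not checked, because no hg19 annotation was used. Sequences of the regions are not reported here.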

Additional observations from a re-analysis of the deposited data

How the results depend on the processing

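The window's count of regions that passed the rank comparison was 0 in every setting of limma that was run. Over the whole table the count was 21, and it was 0 when regions were ranked by fold, with 1 prior spread for all regions, or on percentile ranks. With the replicate number as a block it was 35, and leaving out 1 library gave 4 to 27. Same-numbered libraries shared only a number (correlation of their deviations 0.0111), and with the replicate block the window's count stayed 0 and the block's median rank change -0.27. Regions listed only after tunicamycin numbered 2, but 6 where peaks had to reach a −log10 q of 10 and 1 where gaps of up to 250 bp were merged. Regions listed only after DMSO numbered 0, but 1 at a minimal −log10 q of 5, 1 at 10, 1 with lists of equal length and 3 with peaks of at least 130 bp. With that width the ratio of peak numbers was 0.951 in place of 1.07, so its direction reversed. Leaving out 1 library gave 4 to 14 regions only after tunicamycin and 2 to 8 only after DMSO, where fewer lists have to agree. The enhancer block's median rank change was -0.0898 with 1 peak per library only. Leaving out 1 library moved it between -0.205 and 0.0796, and moved the window's median between -0.0240 and 0.0943. The cause of these shifts was not tested. The promoter's median change of -0.37 was -0.192 without tunicamycin replicate 1 and -0.547 without tunicamycin replicate 2. It was negative in all settings run. Leaving out 1 library could not change that sign, because at both promoter regions both tunicamycin ranks lay below both DMSO ranks. The other settings drew on the same peak lists, so the constant sign is not independent support. Percentile ranks gave no value on this scale. Low summit reads limit single regions: some sites rest on fewer than 10 reads in at least 1 library, such as 5 and 7 after tunicamycin 452.6 kb upstream. With 2 libraries per group, shifts of 1 unit went undetected in simulated data that had 1 spread for all regions.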
